A study of Homo sapiens with 15 samples.

Results

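The TRIM genes encode tripartite motif proteins, most of them ubiquitin ligases, and were read here as a family in irradiated U251 cells, a human glioblastoma line. The members are the genes of the deposited count table whose symbol is TRIM followed by a number, which gave 66 of 22447 genes. RNA-seq was done on 15 libraries in 5 groups of 3: cells taken 6 h or 24 h after 1 Gy, cells taken 6 h or 24 h after 6 Gy, and the unirradiated control. All cells were of the same unmodified line. The control carries the label 0 h, yet the treatment record places its harvest 24 h after the irradiation, so its timing equals that of the 24 h groups and differs from that of the 6 h groups. For this reason a difference between a 6 h group and the control cannot be told apart from a difference in time of culture. The same holds for 24 h against 6 h after either dose, since no unirradiated cells were taken at 6 h. The comparisons address how a dose after which part of the cells survive (1 Gy) and a largely lethal dose (6 Gy) change transcription early and late. The values below rest on 13 libraries. Replicate 3 of the control and replicate 2 of 1 Gy at 6 h were left out. They are also absent from the expression table of the study, and the sources used here give no reason. Their values are shown as open circles in the plots of single libraries.

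TRIM proteins typically carry a RING domain that transfers ubiquitin, one or more B-box zinc fingers, a coiled coil for self-association and a variable C-terminal part that binds the target. Many members with a C-terminal SPRY domain act in innate immunity, either as restriction factors that bind viral proteins or as ligases that tune the sensing of foreign nucleic acid, and several of them are themselves induced by interferon. Other members work in the nucleus: TRIM28 is the corepressor of KRAB zinc finger proteins and a substrate of the kinase ATM at DNA breaks, and TRIM29, which lacks a RING, is a scaffold for DNA repair proteins on chromatin.

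Promoter sequences were compared first, since response elements in them are how interferon reaches its target genes. The core of the interferon-stimulated response element, read here as GAAA, any 2 bases and GAAA again, was searched on both strands in RefSeq windows of 300 bases (250 before to 50 after the start, GRCh38.p14). Of the 11 members listed as interferon-linked, 10 had a window and 6 of these genes (60%) held the letters (TRIM5, TRIM14, TRIM21, TRIM26, TRIM34 and TRIM69). Of the other TRIM genes, 42 had a window and 3 of them (7.14%) held the letters (TRIM2, TRIM16 and TRIM44). Among all 27305 genes with a window, 4.38% held them, and of the 33 interferon-stimulated genes outside the family that had a window, 23 (69.7%) did. Shown here are windows of 4 interferon-linked members with a match and of TRIM2 and TRIM62, members outside that list that rose at 24 h, the first with a match and the second without. Capitals mark the match, written as it stands on the strand of the gene, so that a match on the other strand reads TTTC, any 2 bases and TTTC.
TRIM21: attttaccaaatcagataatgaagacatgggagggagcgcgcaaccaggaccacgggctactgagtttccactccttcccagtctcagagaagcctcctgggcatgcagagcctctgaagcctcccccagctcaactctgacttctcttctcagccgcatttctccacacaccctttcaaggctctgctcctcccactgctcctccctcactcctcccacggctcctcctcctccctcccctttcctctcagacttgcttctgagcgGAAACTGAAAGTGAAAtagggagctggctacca
TRIM5: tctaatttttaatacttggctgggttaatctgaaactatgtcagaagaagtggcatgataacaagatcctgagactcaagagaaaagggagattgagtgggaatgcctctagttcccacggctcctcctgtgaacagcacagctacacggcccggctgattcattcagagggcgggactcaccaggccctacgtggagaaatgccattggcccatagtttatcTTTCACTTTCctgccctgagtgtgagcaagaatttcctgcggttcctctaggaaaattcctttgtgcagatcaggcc
TRIM14: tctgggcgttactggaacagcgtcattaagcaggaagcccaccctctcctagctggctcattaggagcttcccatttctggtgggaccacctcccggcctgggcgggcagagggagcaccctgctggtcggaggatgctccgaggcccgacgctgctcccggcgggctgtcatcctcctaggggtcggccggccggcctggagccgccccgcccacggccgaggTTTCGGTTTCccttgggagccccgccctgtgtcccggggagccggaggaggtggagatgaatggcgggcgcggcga
TRIM69: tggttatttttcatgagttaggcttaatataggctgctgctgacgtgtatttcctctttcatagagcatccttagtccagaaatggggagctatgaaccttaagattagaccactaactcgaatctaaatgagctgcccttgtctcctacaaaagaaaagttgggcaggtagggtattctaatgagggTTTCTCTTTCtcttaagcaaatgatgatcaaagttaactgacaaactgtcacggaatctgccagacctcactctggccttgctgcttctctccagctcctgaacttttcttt
TRIM2: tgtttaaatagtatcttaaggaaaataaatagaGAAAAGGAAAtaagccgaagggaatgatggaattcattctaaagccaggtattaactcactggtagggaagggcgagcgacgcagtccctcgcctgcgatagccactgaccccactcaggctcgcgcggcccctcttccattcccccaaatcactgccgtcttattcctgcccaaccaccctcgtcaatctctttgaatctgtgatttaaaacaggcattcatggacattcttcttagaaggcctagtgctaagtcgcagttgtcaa
TRIM62: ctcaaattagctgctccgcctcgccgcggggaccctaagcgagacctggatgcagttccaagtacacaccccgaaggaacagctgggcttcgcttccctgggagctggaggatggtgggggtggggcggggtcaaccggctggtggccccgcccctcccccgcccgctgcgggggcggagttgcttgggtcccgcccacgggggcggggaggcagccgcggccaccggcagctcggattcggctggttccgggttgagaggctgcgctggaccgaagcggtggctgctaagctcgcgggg
The TRIM21 window (chr11:4393653-4393952, minus strand) holds overlapping matches that begin at 17 and 23 bases counted from the start of transcription. The match begins at position -27 in TRIM5 (chr11:5685025-5685324, minus strand), at -26 in TRIM14 (chr9:98119173-98119472, minus strand) and at -62 in TRIM69 (chr15:44736278-44736577, plus strand). In TRIM2 it begins at -217 of the first of its start sites (chr4:153151913-153152212, plus strand), and the windows of its other starts hold none. The TRIM62 window (chr1:33181994-33182293, minus strand) holds no match. A match of letters is a description of the sequence and not a measured binding site. No window was used for TRIM22, TRIM29 and TRIM45.

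The 13 libraries held 8691338 to 11719631 counts, of which the TRIM genes took 0.253 to 0.279% in each of the 15 libraries. The 8 glioblastoma and astroglial markers (VIM, NES, CD44 and others) were all above 1 CPM, and their summed level lay between 4290 and 4966 CPM. CPM are counts scaled to the same TMM-adjusted library size. Of the 5 blood cell markers in the table, HBB was at 0 in every library, and the summed level of the list was 0.657 to 1.62 CPM. The 3 neuron markers in the table (RBFOX3, SYP and SNAP25) summed to 8.33 to 13.2 CPM in the libraries of 24 h, against 8.10 to 8.21 CPM in the control. None of them passed an edgeR adjusted p below 0.05 at 24 h against the control (median log2 fold change 0.45 after 1 Gy and 0.81 after 6 Gy), and SYP did for 24 h against 6 h after 6 Gy (1.01, adjusted p = 0.0193), with libraries that overlap. Their part in the changes of the TRIM genes at 24 h was not tested.

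Of the 66 members, 43 had enough counts to be tested and 23 did not. Among the untested, 11 had no count in any library: the muscle ligase gene TRIM63, TRIM15, TRIM31, TRIM40, TRIM42, TRIM43, TRIM48, TRIM49, TRIM51, TRIM64 and TRIM77. The other 12 had between 3 counts (TRIM10 and TRIM60) and 56 counts (TRIM17) in all 15 libraries together, and TRIM34, a close relative of TRIM5, had 17. Such totals are too low to show a change. Per kilobase of transcript, which allows levels of different genes to be compared, TRIM28 led the 42 tested members with a known length at 292.9 CPM per kb, followed by TRIM47 at 39.7, TRIM27 at 37.1, TRIM8 at 31.0 and TRIM26 at 27.5 CPM per kb. TRIM29 stood at place 38 with 0.798 CPM per kb, above TRIM46, TRIM59, TRIM6 and TRIM71. Of the interferon-linked members, TRIM69 and TRIM25 stood at places 7 and 8 (20.7 and 20.4 CPM per kb), TRIM22 at place 26 (5.13 CPM per kb) and TRIM6 at place 41 (0.523 CPM per kb).

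**Figure D1:**
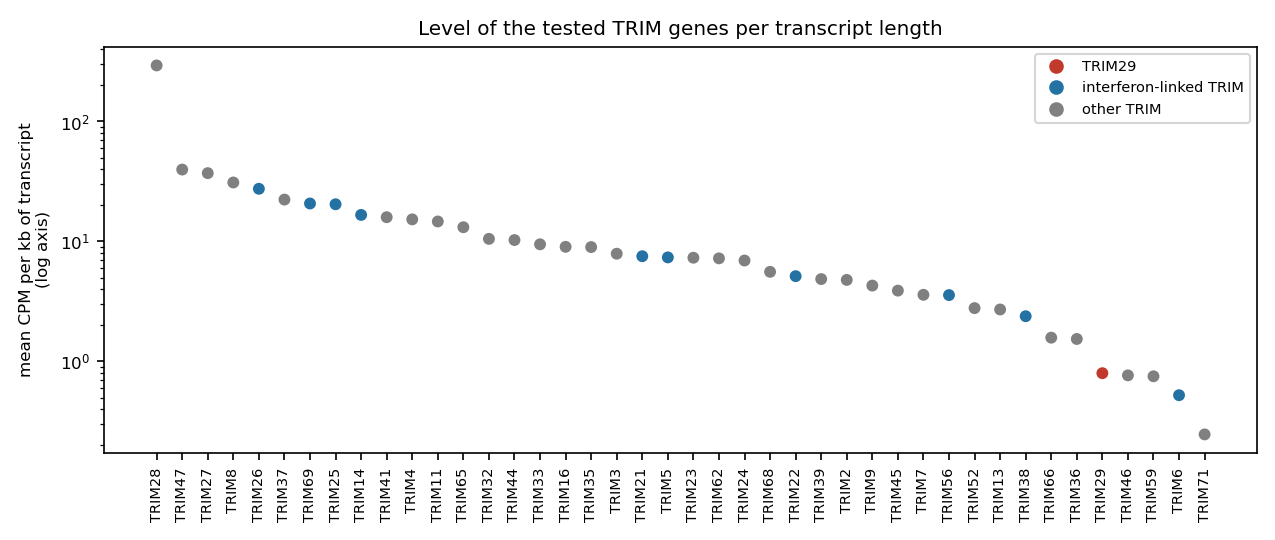
Mean CPM per kb of transcript over 13 libraries (log axis) of the 42 tested TRIM genes with a known transcript length, in falling order. TRIM28 lies far above the others at 292.9 CPM per kb, and TRIM29 (red) is among the lowest at 0.798 CPM per kb.

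Irradiation changed few members of the family, and those it changed were higher. Each gene went through the quasi-likelihood test of edgeR, its p adjusted by Benjamini-Hochberg over the 12719 tested genes, and was called where the log2 fold change passed 0.5 or -0.5 and the adjusted p stayed below 0.05. At 24 h after 1 Gy, 3 of the 43 tested members (6.98%) were called, against 4.42% of all tested genes in either direction and 3.18% in the higher direction. They were TRIM22, TRIM29 and TRIM2, all higher. In bulk RNA a change in the share of cells that make a transcript and a change per cell cannot be told apart. At 24 h after 6 Gy, 4 members (9.3%) were called, against 7.77% of all genes in either direction and 5.58% in the higher direction. They were TRIM62, TRIM45, TRIM29 and TRIM2, again all higher. Both shares lie close to those of all genes, and the 2 comparisons share the control libraries. The median log2 fold change of the members was 0.04 at 24 h after 1 Gy and 0.08 at 24 h after 6 Gy, where that of all tested genes was 0.00 in each. Without replicate 1 of the control the count at 24 h after 1 Gy was 1 (TRIM2).

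At 6 h no member was called at either dose. After 1 Gy the lowest adjusted p in the family was 0.998, and 0% of all genes were called. With an unadjusted p below 0.05, 0 members were higher and 3 lower (6.98%, against 3.11% of all genes). After 6 Gy the lowest adjusted p was 0.0906 (TRIM69), and 1.07% of all genes were called. At the unadjusted threshold 3 members were higher and 5 lower (18.6%, against 15.3% of all genes). DESeq2 also called 0 members in both comparisons. A log2 fold change within 0.5 of 0 was found for 41 of the 43 members at 6 h after 1 Gy, 38 at 24 h after 1 Gy, 41 at 6 h after 6 Gy and 37 at 24 h after 6 Gy, that is 95.3%, 88.4%, 95.3% and 86.0% of them. For all tested genes these shares were 95.7%, 90.5%, 94.5% and 87.1%.

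**Figure D2:**
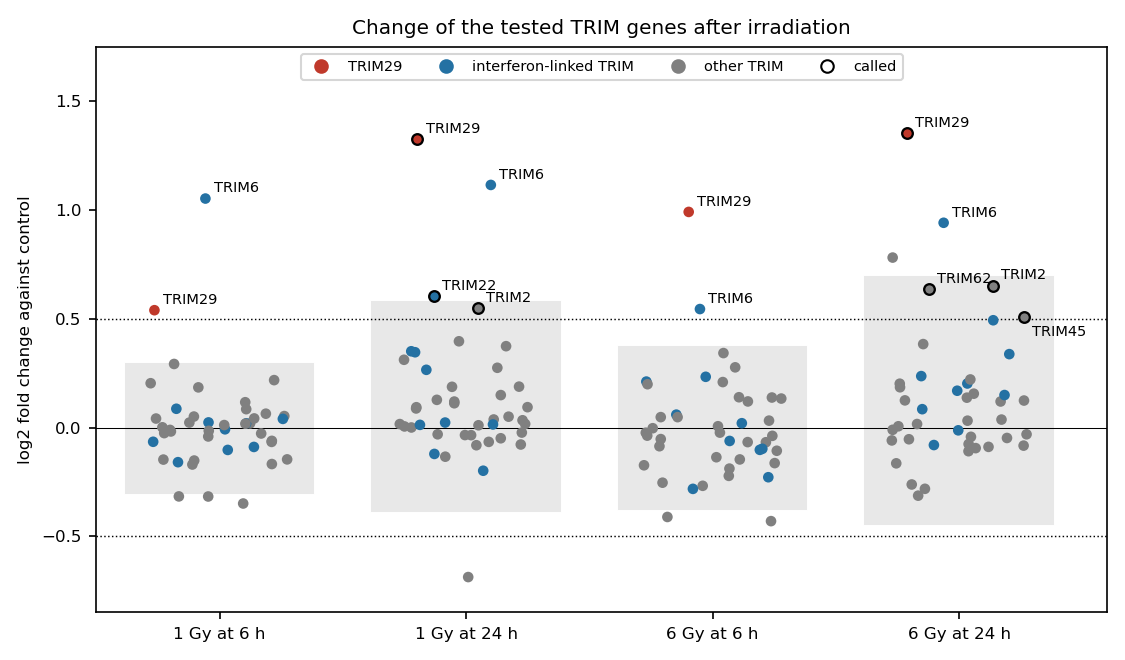
Log2 fold change of each of the 43 tested TRIM genes against the control (1 point per gene, sideways spread arbitrary). Grey boxes span the 5th to 95th percentile of all tested genes, dotted lines mark 0.5 and -0.5, and black rings mark called genes. TRIM29 has the highest value among the members at 24 h after both doses (1.33 and 1.35), while 38 and 37 members lie within the dotted lines.

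More members were called between the times than between the doses, as was also the case for all tested genes. Between 24 h and 6 h, 3 members were called after 1 Gy (TRIM62, TRIM22 and TRIM2), which is 6.98% against 5.48% of all genes (3.9% in the higher direction). After 6 Gy there were 5 (TRIM62, TRIM22, TRIM69, TRIM2 and TRIM52), which is 11.6% against 10.6% of all genes (7.57% in the higher direction). All were higher at 24 h, a difference that cannot be told apart from the longer time of culture. Between 6 Gy and 1 Gy, 0 members were called at 6 h, where 0.582% of all genes were called and the lowest adjusted p in the family was 0.337. With an unadjusted p below 0.05, 1 member was higher and 1 lower (4.65%, against 7.42% of all genes). At 24 h 0 members were called as well, against 0.44% of all genes, and 4 were higher and 1 lower with an unadjusted p below 0.05 (11.6%, against 19.0% of all genes). The interaction of dose and time called 0 members, against 0.291% of all genes, with a lowest adjusted p of 0.181. Here 2 members were higher and 3 lower with an unadjusted p below 0.05 (11.6%, against 11.2% of all genes). DESeq2 called 0 members in these 3 comparisons too.

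TRIM29 (chromosome 11, 119981994 to 120008863, minus strand, hg19) had the largest rise in the family at 24 h, from a very low level. Its CPM were 1.96, 3.11 and 4.00 at 24 h after 1 Gy and 2.33, 3.37 and 3.29 at 24 h after 6 Gy, against 1.28 and 1.06 in the control. All 6 libraries of 24 h lay above both control libraries. The log2 fold change was 1.33 after 1 Gy, with a standard error (SE) of 0.387 and an adjusted p = 0.0271, and 1.35 after 6 Gy (SE 0.385, adjusted p = 0.0137). TRIM29 was a viewpoint of the chromatin contact assay, picked because it rose in these libraries, so the call is not independent evidence of its direction.

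At 6 h the group means of TRIM29 lay between these levels. It had 2.81, 2.41 and 1.77 CPM after 6 Gy, all above the control libraries, with a log2 fold change of 0.99 that was not called (SE 0.406, adjusted p = 0.237). After 1 Gy it had 1.05 and 2.43 CPM, and the libraries overlapped those of the control (log2 fold change 0.54, SE 0.469, adjusted p = 0.998). The left-out library of 1 Gy at 6 h held 11 counts and that of the control 14, which scale to 1.27 and 1.29 CPM. In the order of group means, 3.02 ± 1.02 CPM at 24 h after 1 Gy (SD, n = 3), 2.996 ± 0.577 CPM at 24 h after 6 Gy (SD, n = 3), 2.33 ± 0.526 CPM at 6 h after 6 Gy (SD, n = 3), 1.74 ± 0.977 CPM at 6 h after 1 Gy (SD, n = 2) and 1.17 ± 0.153 CPM in the control (SD, n = 2), no neighbours were told apart by the tests. The log2 fold change of 6 Gy over 1 Gy was 0.03 at 24 h (SE 0.279, adjusted p = 0.969) and 0.45 at 6 h (SE 0.373, adjusted p = 0.939). The values of 24 h against 6 h were 0.79 after 1 Gy (SE 0.356, adjusted p = 0.143) and 0.36 after 6 Gy (SE 0.294, adjusted p = 0.363).

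The counts behind TRIM29 were 23, 27 and 36 at 24 h after 1 Gy and 23, 34 and 32 at 24 h after 6 Gy, against 12 and 11 in the control, so that single libraries decide its call. After 1 Gy it was lost without replicate 1 or 2 of the control (adjusted p = 0.113 and 0.206) and without replicate 2 or 3 of 1 Gy at 24 h (adjusted p = 0.0646 and 0.118). After 6 Gy it was lost without replicate 1 or 2 of the control (adjusted p = 0.0588 and 0.134). The log2 fold change stayed between 1.07 and 1.48 in these fits. With all 15 libraries it was called after both doses, at 1.27 after 1 Gy (adjusted p = 0.0132) and 1.30 after 6 Gy (adjusted p = 0.00585). Without replicate 1 of 1 Gy at 24 h, TRIM29 was also called for 24 h against 6 h after 1 Gy (log2 fold change 1.06, adjusted p = 0.0451).

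TRIM29 is known as a gene of stratified and glandular epithelium. The summed level of the 9 epithelial markers was 166 to 186 CPM in the libraries of 24 h, against 148 to 153 CPM in the control, and EPCAM was at 0 in every library. Of the 6 tested markers 1 was called at 24 h after 1 Gy (ESRP1) and 2 at 24 h after 6 Gy (ESRP1 and KRT8), all higher. Of all tested genes 4.42% and 7.77% were called in these comparisons. The log2 fold changes of the others after 1 Gy and after 6 Gy were 0.81 and 0.55 for KRT5, 0.79 and 0.62 for KRT14, 0.03 and 0.01 for KRT18, and -0.31 and -0.09 for CLDN4. The splicing regulator gene ESRP1 had 2.42 ± 0.216 CPM at 24 h after 1 Gy and 2.23 ± 0.392 CPM at 24 h after 6 Gy (SD, n = 3 each), against 0.624 ± 0.473 CPM in the control (SD, n = 2). The keratin gene KRT8 had a log2 fold change of 0.51 after 6 Gy (adjusted p = 0.000313) and 0.37 after 1 Gy, which was not called for its fold. Their part in the change of TRIM29 was not tested.

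TRIM2 (chromosome 4, 154074270 to 154260474, plus strand, hg19) was the one member called in all 4 comparisons that set 24 h against the control or against 6 h. It encodes a ligase with C-terminal NHL repeats that ubiquitinates the neurofilament light chain. Its CPM were 39.3, 39.0 and 36.5 at 24 h after 1 Gy and 38.4, 41.8 and 43.3 at 24 h after 6 Gy, against 26.3 and 26.1 in the control. At 6 h it had 26.7 and 25.7 CPM after 1 Gy and 26.8, 23.7 and 26.05 CPM after 6 Gy. The libraries of 24 h thus formed a group of their own above all libraries of 6 h and of the control. Against the control its log2 fold change was 0.55 after 1 Gy (SE 0.0937, adjusted p = 0.000447) and 0.65 after 6 Gy (SE 0.0931, adjusted p = 3.35e-05). For 24 h against 6 h it was 0.55 after 1 Gy (SE 0.0938, adjusted p = 0.000355) and 0.69 after 6 Gy (SE 0.083, adjusted p = 1.99e-06). The call held in each fit that left out a library and with all 15 libraries. TRIM2 overlaps the pseudogene ANXA2P1 on the opposite strand, and the sources used here do not say whether the counting kept the strands apart. The other 3 members with NHL repeats, TRIM3, the muscle disease gene TRIM32 and TRIM71, a repressor of mRNAs in stem cells, were not called in any comparison. Of all tested genes 15.4% were called in at least 1 comparison.

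**Figure D3:**
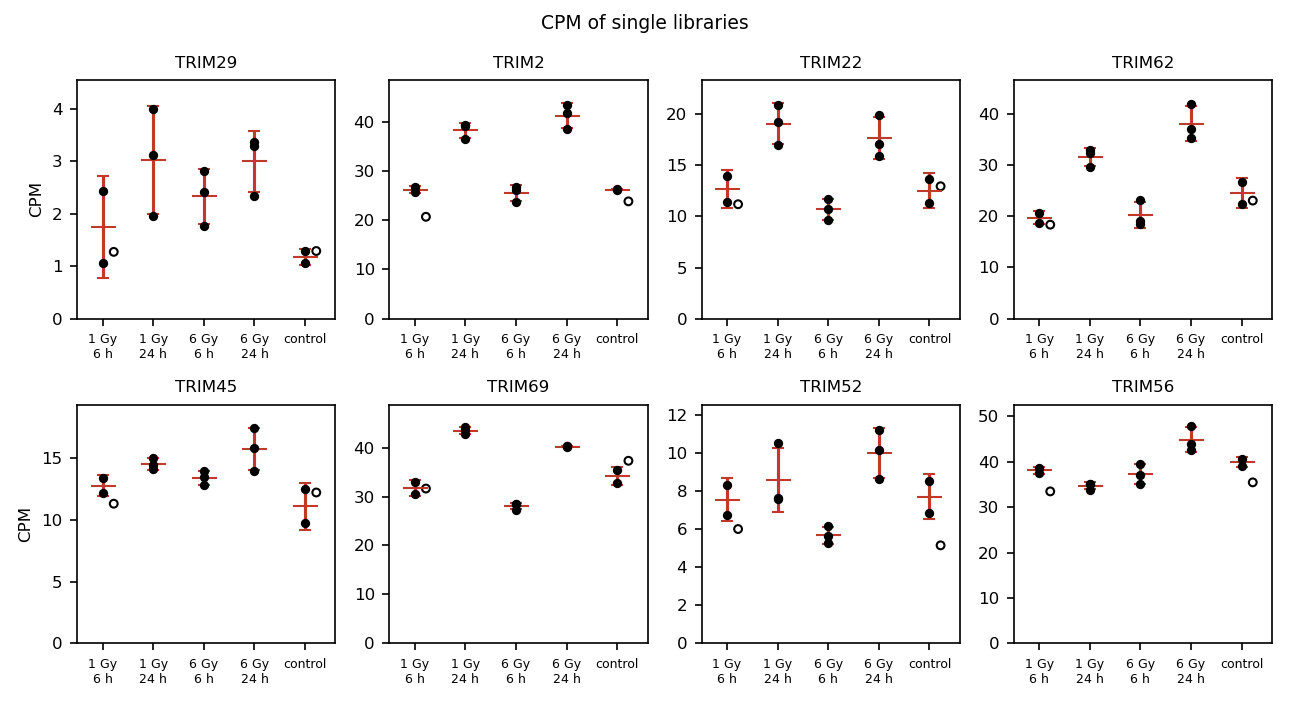
CPM in single libraries (black points) of the 7 TRIM genes called in any comparison and of TRIM56, by group, with the group mean and SD in red (n = 3, or 2 for 1 Gy at 6 h and the control). Open circles are the left-out libraries, scaled with all 15. TRIM2 separates 24 h (36.5 to 43.3 CPM) from 6 h and control (23.7 to 26.8 CPM, black points), and TRIM29 stays at or below 4.00 CPM.

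TRIM62 (chromosome 1, 33611003 to 33647671, minus strand, hg19), a SPRY ligase that acts on SMAD3 and on the immune adaptor CARD9, rose at 24 h after 6 Gy, and its lowest group means were those of 6 h. At 24 h it had 33.0, 29.7 and 32.3 CPM after 1 Gy and 41.98, 36.98 and 35.3 CPM after 6 Gy, against 26.6 and 22.4 CPM in the control. At 6 h it had 18.8 and 20.6 CPM after 1 Gy and 23.2, 18.5 and 19.2 CPM after 6 Gy. Neither 24 h group overlapped the control. Against the control TRIM62 had a log2 fold change of 0.64 at 24 h after 6 Gy (SE 0.114, adjusted p = 0.000364). It was 0.37 at 24 h after 1 Gy, which passed the adjusted p but not the fold (SE 0.115, adjusted p = 0.0363). At 6 h the values were -0.32 after 1 Gy (adjusted p = 0.998) and -0.27 after 6 Gy (adjusted p = 0.291). TRIM62 had the largest difference between times in the family after 6 Gy, with a log2 fold change of 0.91 for 24 h against 6 h (SE 0.103, adjusted p = 1.06e-06), and 0.69 after 1 Gy (SE 0.119, adjusted p = 0.000376). The 3 libraries of 6 Gy at 24 h lay above those of 1 Gy, but the difference of 0.26 was not called (SE 0.098, adjusted p = 0.136).

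TRIM45, whose product has a filamin-type domain and dampens MAP kinase signalling, (chromosome 1, 117653677 to 117664411, minus strand, hg19) rose at 24 h after 6 Gy. It had 15.8, 14.0 and 17.5 CPM after 6 Gy and 15.1, 14.2 and 14.4 CPM after 1 Gy, against 12.5 and 9.75 CPM in the control. Its log2 fold change was 0.51 after 6 Gy (SE 0.134, adjusted p = 0.00858) and 0.40 after 1 Gy, which was not called (adjusted p = 0.0584). The call after 6 Gy sits at the fold threshold. It was lost without replicate 2 of the control (0.34, adjusted p = 0.206), without replicate 3 of 6 Gy at 24 h (0.43, adjusted p = 0.0419) and with all 15 libraries (0.45, adjusted p = 0.0068).

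TRIM52, a RING protein with no C-terminal substrate domain (chromosome 5, 180683386 to 180688119, minus strand, hg19), was likewise called between the times after 6 Gy. Its CPM were 8.62, 11.2 and 10.2 at 24 h, against 5.63, 5.26 and 6.15 at 6 h after 6 Gy (log2 fold change 0.81, SE 0.166, adjusted p = 0.000675). After 1 Gy it had 10.5, 7.60 and 7.66 CPM at 24 h, against 8.33 and 6.75 CPM at 6 h, which overlap. The control had 8.53 and 6.86 CPM, and the value at 24 h after 6 Gy against it was 0.38 (SE 0.176, adjusted p = 0.119). That value was 0.56 and called with all 15 libraries (adjusted p = 0.024). TRIM52 overlaps CTC-338M12.4 on the opposite strand.

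Of the 11 interferon-linked members, 10 were tested, and at most 2 were called in any comparison. At 24 h after 1 Gy, 1 was higher (TRIM22), and the median log2 fold change of the list was 0.14. After 6 Gy at that time 0 were called and the median was 0.19, while 3 members of the list (TRIM5, TRIM22 and TRIM69) passed the adjusted p and not the fold. At 6 h after 6 Gy, 0 were called and the median was -0.02. For 24 h against 6 h, 1 was higher after 1 Gy (TRIM22, median 0.12) and 2 after 6 Gy (TRIM22 and TRIM69, median 0.27). The other 33 tested members had 2 calls at 24 h after 1 Gy (median 0.04) and 4 at 24 h after 6 Gy (median 0.02). Calls against the control made up 4.42% of all tested genes for 1 Gy at 24 h and 7.77% for 6 Gy at 24 h. The share for 6 Gy at 6 h was 1.07%. Between the times, 5.48% (1 Gy) and 10.6% (6 Gy) of all tested genes were called. Whether the list differed from the other members or from all genes was not tested, and 10 genes are few for such counts.

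TRIM22 (chromosome 11, 5710817 to 5732093, plus strand, hg19) is both an interferon-induced antiviral factor and a known target of p53. It had 19.3, 20.9 and 17.0 CPM at 24 h after 1 Gy and 17.1, 16.0 and 19.9 CPM at 24 h after 6 Gy, against 11.3 and 13.7 CPM in the control. At 6 h it had 14.0 and 11.4 CPM after 1 Gy and 9.69, 11.7 and 10.7 CPM after 6 Gy. All libraries of 24 h lay above all others. TRIM22 had a log2 fold change against the control of 0.60 after 1 Gy (SE 0.140, adjusted p = 0.00601). After 6 Gy it was 0.49 (SE 0.141, adjusted p = 0.0143), so the gene passed the adjusted p and missed the fold threshold. For 24 h against 6 h it was 0.58 after 1 Gy (SE 0.140, adjusted p = 0.00672) and 0.72 after 6 Gy (SE 0.130, adjusted p = 0.000194).

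Several calls of TRIM22 turned on 1 library. Without replicate 1 of the control, the value at 24 h after 1 Gy was 0.48 and was not called (adjusted p = 0.126). Without replicate 3 of 1 Gy at 6 h, the value of 24 h against 6 h after 1 Gy was 0.44 (adjusted p = 0.106). At 24 h after 6 Gy TRIM22 was called without replicate 2 of the control (0.64, adjusted p = 0.0309), without replicate 1 (0.51, adjusted p = 0.0213) or replicate 2 (0.56, adjusted p = 0.0106) of 6 Gy at 24 h.

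TRIM69, an interferon-induced SPRY protein that restricts some RNA viruses (chromosome 15, 45028560 to 45060027, plus strand, hg19), was called between the times after 6 Gy. It had 44.3, 42.7 and 43.5 CPM at 24 h after 1 Gy and 40.4, 40.3 and 40.0 CPM at 24 h after 6 Gy, against 35.5 and 32.8 CPM in the control. At 6 h after 6 Gy it had 27.3, 28.5 and 28.4 CPM, all below the control. The 24 h groups lay above the control and the 6 Gy group at 6 h lay below it. The log2 fold change for 24 h against 6 h after 6 Gy was 0.52 (SE 0.0768, adjusted p = 2.50e-05), and without replicate 1 of 6 Gy at 6 h it was 0.499 on the other side of the fold threshold (adjusted p = 0.00024). After 1 Gy it was 0.45 (SE 0.085, adjusted p = 0.000768), and it was called at 0.51 without replicate 1 of 1 Gy at 6 h (adjusted p = 0.00578). Against the control the values were 0.35 at 24 h after 1 Gy (adjusted p = 0.00733), 0.24 at 24 h after 6 Gy (adjusted p = 0.0448) and -0.28 at 6 h after 6 Gy (adjusted p = 0.0906). With all 15 libraries the value at 6 h after 6 Gy was -0.32 and passed the adjusted p but not the fold (adjusted p = 0.0252). The value at 24 h after 6 Gy was then 0.19 and did not pass (adjusted p = 0.0658).

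Next to TRIM22 on chromosome 11 lie its relatives TRIM5, TRIM6 and TRIM34. TRIM5, which binds the capsid of incoming retroviruses, had 27.6, 27.8 and 28.6 CPM at 24 h after 6 Gy, against 22.6 and 21.7 CPM in the control (log2 fold change 0.34, SE 0.105, adjusted p = 0.0229, not called for its fold). After 1 Gy at 24 h its value was 0.27 (SE 0.106, adjusted p = 0.105). TRIM6, which makes free ubiquitin chains in interferon signalling, had only 8 to 29 counts in the libraries of 24 h and 6 and 14 counts in the control. Its log2 fold changes of 1.12 at 24 h after 1 Gy (SE 0.517, adjusted p = 0.168) and 0.94 at 24 h after 6 Gy (SE 0.528, adjusted p = 0.211) were not called. At 6 h after 1 Gy the value was 1.05 (SE 0.565, adjusted p = 0.998), also not called. After 1 Gy the group mean was thus 2.16 CPM at 6 h and 2.21 CPM at 24 h. With no filter on low counts TRIM6 was called at 24 h after 1 Gy (1.11, adjusted p = 0.0323). TRIM6 and TRIM34 overlap the readthrough gene TRIM6-TRIM34, so the counts of both are uncertain.

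**Figure D4:**
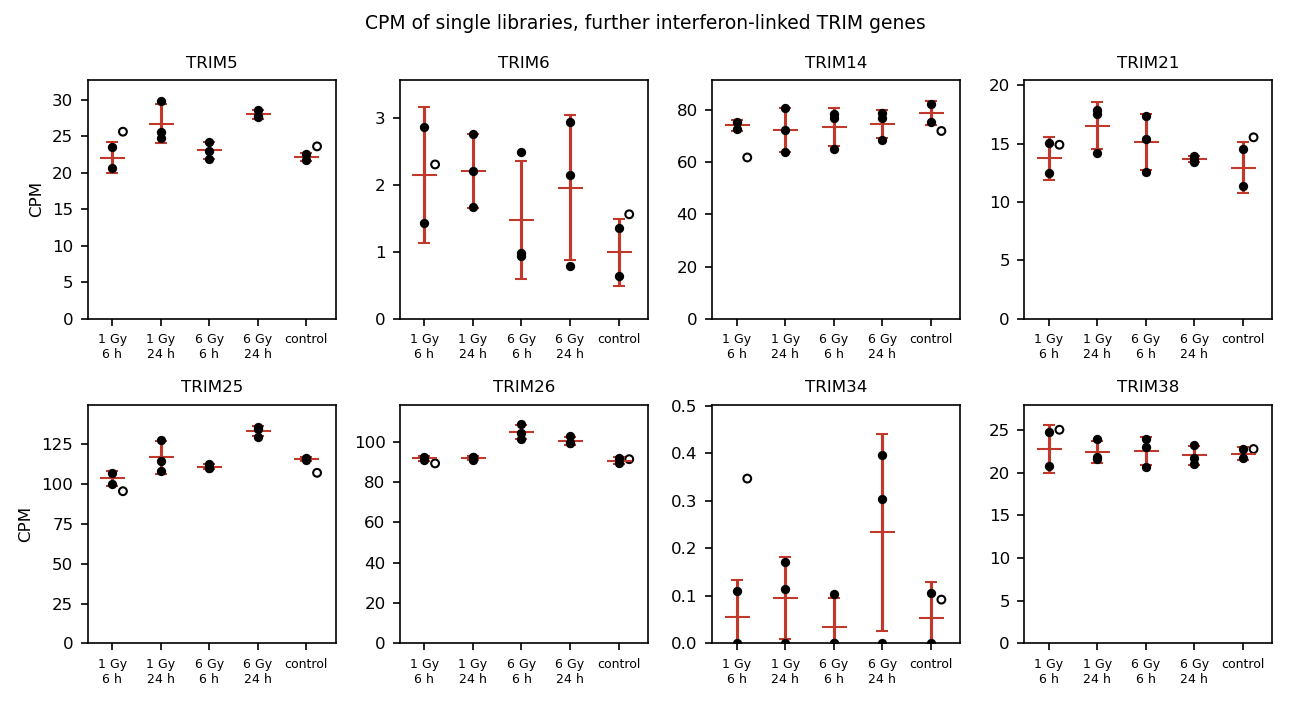
CPM in single libraries (black points) of 8 interferon-linked TRIM genes without a call (TRIM56, the 1 other, is plotted with the called genes), by group, with group mean and SD in red (n = 3, or 2 for 1 Gy at 6 h and the control) and the left-out libraries as open circles. TRIM5 and TRIM25 are higher at 24 h after 6 Gy than in the control libraries, TRIM38 is at a like level in all groups, and TRIM34 is close to 0.

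The remaining interferon-linked members were not called. TRIM25, the ligase that activates the RNA sensor RIG-I, had 134, 136 and 130 CPM at 24 h after 6 Gy, against 117 and 115 CPM in the control (log2 fold change 0.20, SE 0.074, adjusted p = 0.0501). TRIM21, the cytosolic antibody receptor, had 14.2, 17.5 and 17.9 CPM at 24 h after 1 Gy, against 14.5 and 11.4 CPM in the control, which overlap (log2 fold change 0.35, SE 0.150, adjusted p = 0.138). TRIM26, reported to act on IRF3, had 109, 101 and 104 CPM at 6 h after 6 Gy, against 91.8 and 89.3 CPM in the control (log2 fold change 0.21, SE 0.067, adjusted p = 0.105). The MAVS adaptor gene TRIM14 had log2 fold changes of -0.12 (1 Gy) and -0.08 (6 Gy) at 24 h, and TRIM38, which dampens Toll-like receptor signalling, had 0.01 and -0.01.

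TRIM56, a RING ligase of the antiviral response without a SPRY domain, (chromosome 7, 100728720 to 100735019, plus strand, hg19) was the 1 member that passed the adjusted p between the doses at 24 h. It had 47.96, 44.02 and 42.6 CPM at 24 h after 6 Gy, against 35.2, 33.8 and 35.2 CPM at 24 h after 1 Gy. The 2 control libraries of the fit had 40.7 and 39.1 CPM, between these groups and overlapping neither. For 6 Gy over 1 Gy the log2 fold change was 0.37 (SE 0.078, adjusted p = 0.0115), which passes the adjusted p and not the fold threshold. Against the control it was 0.17 at 24 h after 6 Gy (adjusted p = 0.163) and -0.20 at 24 h after 1 Gy (adjusted p = 0.146). With all 15 libraries these values were 0.22 (adjusted p = 0.0513) and -0.15 (adjusted p = 0.275). The value of 6 Gy over 1 Gy was then 0.37 (adjusted p = 0.0269). The interaction of dose and time was 0.40 for TRIM56 and did not pass (SE 0.117, adjusted p = 0.181).

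The family was set beside interferon-stimulated genes outside it, of which some rose at 24 h. Of 36 tested genes on the list, 5 were higher and 0 lower at 24 h after 1 Gy (IFIT2, EPSTI1, PARP9, IRF1 and DDX58). Of all tested genes 3.18% were called higher there. The median log2 fold change of the list was 0.24. After 6 Gy at 24 h 6 were higher and 0 lower (ISG15, IFIT2, PARP9, PARP14, IRF1 and DDX58), with a median of 0.34 and values from -0.90 to 1.45. Here 5.58% of all genes were called higher. For 24 h against 6 h after 1 Gy, 5 were higher and 0 lower (median 0.29), against 3.9% of all genes called higher. After 6 Gy 10 were higher and 1 lower between the times (median 0.42, values from -1.48 to 1.11), against 7.57% of all genes called higher. IFIT2, which binds RNA and limits translation, had 6.27 ± 0.998 CPM at 24 h after 6 Gy and 4.04 ± 0.489 CPM at 24 h after 1 Gy (SD, n = 3 each), against 2.27 ± 0.343 CPM in the control (SD, n = 2). DDX58, the gene of RIG-I that TRIM25 acts on, had log2 fold changes of 0.53 at 24 h after 1 Gy (adjusted p = 0.0395) and 0.58 at 24 h after 6 Gy (adjusted p = 0.0136). At 6 h after 6 Gy 1 gene of the list was lower, IFIT1, at 2.93 ± 0.849 CPM (SD, n = 3), against 7.33 ± 1.78 CPM in the control (SD, n = 2). In that comparison 1.07% of all genes were called. IFIT1 was also the 1 gene of the list called for 6 Gy against 1 Gy at 6 h, again lower. There 0.582% of all genes were called.

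Upstream of them, the receptor gene IFNAR2 was higher at 24 h, with log2 fold changes of 0.53 after 1 Gy (adjusted p = 0.0262) and 0.51 after 6 Gy (adjusted p = 0.0206). The other 7 tested genes of interferon receptors and their kinases were not called against the control. Of all tested genes 4.42% (1 Gy) and 7.77% (6 Gy) were called at 24 h, and 0% and 1.07% at 6 h. With 8 tested genes, 1 call is too few to set against these shares. The transcripts of the ligand genes IFNB1 and IFNL1 averaged 0 CPM in the control. Their levels after irradiation are not given here. Whether an interferon signal links these genes to TRIM22 was not tested.

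**Figure D5:**
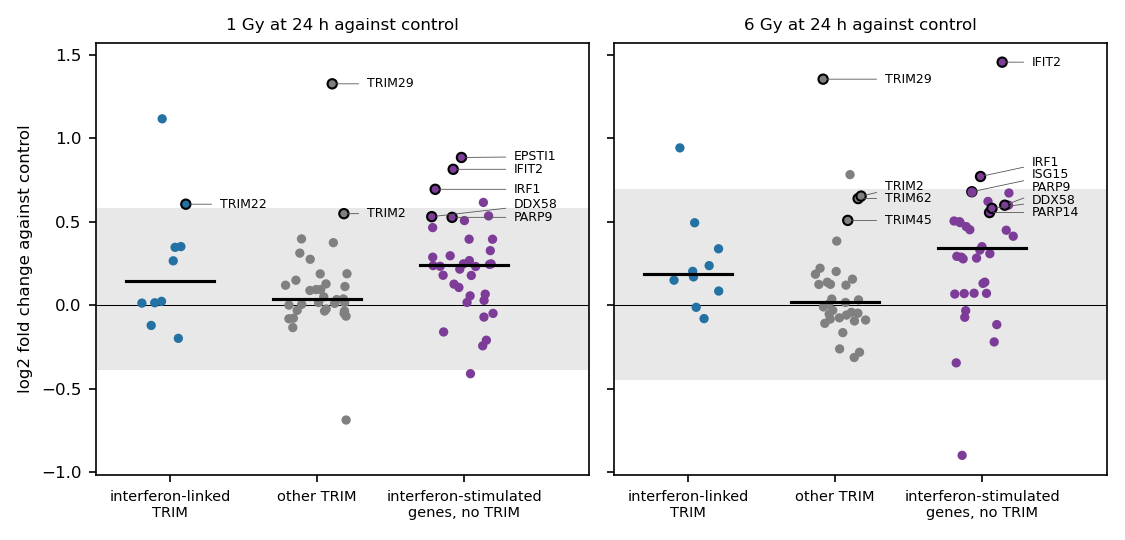
Log2 fold change against the control at 24 h after 1 Gy (left) and 6 Gy (right) for the 10 tested interferon-linked TRIM genes, the 33 other tested TRIM genes and 36 tested interferon-stimulated genes outside the family (1 point per gene). Bars are medians (0.14, 0.04 and 0.24 after 1 Gy, 0.19, 0.02 and 0.34 after 6 Gy), grey bands the 5th to 95th percentile of all tested genes, and rings mark called genes.

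The 4 nuclear members with a PHD finger and a bromodomain read or silence chromatin. TRIM28 had 973, 854 and 902 CPM at 24 h after 6 Gy, against 1124, 1049 and 1054 CPM at 6 h after 6 Gy, which do not overlap (log2 fold change -0.24, SE 0.059, adjusted p = 0.00293, not called for its fold). The control had 976 and 986 CPM, and the values against it were -0.07 at 24 h after 1 Gy and -0.11 at 24 h after 6 Gy. None of TRIM24, TRIM28, TRIM33 and TRIM66 was called in any of the 9 comparisons. Of all tested genes 15.4% were called in at least 1 of them, so 0 of 4 members lies near that share. Of 9 genes of TRIM28 partners such as SETDB1 and the HP1 genes, 0 were called at 24 h against the control. The SETDB1 cofactor gene ATF7IP was lower at 6 h after 6 Gy (log2 fold change -0.50, SE 0.110, adjusted p = 0.0113), where 1.07% of all genes were called. Of the 9 members linked to p53 or DNA damage, 2 were called at 24 h after 1 Gy (TRIM22 and TRIM29), where 4.42% of all genes were called, and 1 at 24 h after 6 Gy (TRIM29), where 7.77% were.

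In at least 1 of the 9 comparisons 7 of the 43 tested members (16.3%) were called, against 15.4% of all tested genes. By C-terminal part, these 7 were 3 of the 21 tested SPRY proteins (TRIM22, TRIM62 and TRIM69), 2 of 6 without such a domain (TRIM29 and TRIM52), 1 of 4 with NHL repeats (TRIM2), 1 of 5 with other domains (TRIM45), 0 of 4 with a PHD finger and bromodomain and 0 of 3 with a COS box. Further members passed the adjusted p and not the fold. They included TRIM47 at 24 h after 1 Gy, with 98.1, 101.2 and 101.5 CPM, against 84.4 and 77.1 CPM in the control (log2 fold change 0.31, adjusted p = 0.00505), and, between the times, TRIM8, TRIM68, TRIM65 and TRIM25, with log2 fold changes of 0.28, -0.31, -0.22 and 0.26 after 6 Gy. TRIM44, which carries a ubiquitin protease type zinc finger in place of the RING, had 0.01 at 24 h after 6 Gy and -0.22 at 6 h after 6 Gy. Other large values that were not called belonged to members with low counts: -0.69 for TRIM71 at 24 h after 1 Gy (SE 0.293, adjusted p = 0.131), 0.78 for TRIM73 at 24 h after 6 Gy (SE 0.376, adjusted p = 0.139) and -0.47 for the membrane-bound TRIM59 at 6 h for 6 Gy over 1 Gy (SE 0.284, adjusted p = 0.836). TRIM73 is listed at the same position as its near-identical copy TRIM74, so its counts are uncertain.

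Of 8 relatives of the family under other names, 6 were tested, and 2 were called against the control. At 24 h 1 was called after 1 Gy and 2 after 6 Gy, against 4.42% and 7.77% of all genes. PML, the organiser of nuclear bodies and itself interferon-induced, had 126 ± 6.13 CPM at 24 h after 6 Gy and 110 ± 4.73 CPM at 24 h after 1 Gy (SD, n = 3 each), against 84.0 ± 5.93 CPM in the control (SD, n = 2). Its log2 fold change was 0.59 after 6 Gy (SE 0.0752, adjusted p = 9.82e-06) and 0.40 after 1 Gy (SE 0.0753, adjusted p = 0.00116), of which the first was called. RNF207, a cardiac ligase gene, had 2.69 ± 0.376 CPM at 24 h after 6 Gy and 2.40 ± 0.263 CPM at 24 h after 1 Gy (SD, n = 3 each), against 0.996 ± 0.504 CPM in the control (SD, n = 2), and was called after both doses (log2 fold change 1.40 and 1.22). The 8 genes of ubiquitin-conjugating enzymes that work with RING ligases had 0 calls in the 4 comparisons with the control. After 1 Gy and 6 Gy, 4.42% and 7.77% of all genes were called at 24 h, and 0% and 1.07% at 6 h.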

How the data were processed

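The authors aligned the poly(A) RNA-seq reads of 15 U251 libraries to hg19 with TopHat and made a table of read counts per gene with HTSeq, deposited without normalization. The sources used here give neither versions nor the use of strand. A second deposited table holds the authors' normalized values, fold changes, p-values and calls and was not used. The methods speak of biological replicates, and no label tells separate cultures, so p-values measure the spread between libraries.

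Counts of 13 libraries were fitted in R 4.3.3 with edgeR 4.0.16 as 1 model of 5 groups (filterByExpr at min.count 10, min.total.count 15, large.n 10 and min.prop 0.7, then TMM scaling, glmQLFit and glmQLFTest), with 8 residual and 13.5 prior degrees of freedom and a biological coefficient of variation of 6.26%. All p-values were adjusted over the 12719 tested genes of a comparison. Standard errors are the fold change divided by the root of F. Library totals were 8691338 to 11719631 counts, and members with few counts, TRIM29 included, have wide errors. CPM per kb used GENCODE canonical transcripts.

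The members and lists were chosen with earlier results of these data known. Named are TRIM29, the interferon-linked members, members called in any of the 9 comparisons, the 3 with the highest mean CPM and up to 2 uncalled members per comparison with the largest fold change. Other genes, and members named for an adjusted p only, a promoter match or a missing count, were named after their values were seen. The alternatives were all 15 libraries, RLE size factors, library totals, no filter, DESeq2 1.42.0, the replicate number as a block, and each library left out in turn. The steps were tested on simulated counts. Figures were drawn with matplotlib 3.10.9 in Python 3.11.15.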

Additional observations from a re-analysis of the deposited data

Results flagged for a closer look

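TRIM56 differed between the doses at 24 h, with a log2 fold change of 0.37 for 6 Gy over 1 Gy by a direct test in the edgeR fit (adjusted p = 0.0115). Its 3 libraries of 6 Gy lay above the 2 control libraries of the fit and its 3 libraries of 1 Gy below them. The left-out control library is not part of this order.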

How the results depend on the processing

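The counts of called members stayed within 1.5 times of those reported under all 15 libraries, RLE size factors, library totals, no filter, DESeq2 and the replicate block. Leaving out each library in turn gave 1 to 3 members at 24 h after 1 Gy, 3 to 5 at 24 h after 6 Gy, 2 to 4 for 24 h against 6 h after 1 Gy and 4 to 5 after 6 Gy, and 0 in the other 5 comparisons. The low count of 1 came without replicate 1 of the control. The value of TRIM29 at 6 h after 1 Gy, 0.54, ranged between -0.15 and 1.05 with each library left out and was negative without replicate 3 of 1 Gy at 6 h, and the cause was not tested beyond the removal of that library. Of 702 values of single members under the alternatives, 679 kept their direction and side of the thresholds, 13 lost a call, 9 gained one and 1 reversed. With the replicate block, 3 members were called at 24 h after 1 Gy and 4 at 24 h after 6 Gy, and 3 and 5 between the times. TRIM22 (0.51) took the place of TRIM45 (0.47) at 24 h after 6 Gy. Libraries of the same number correlated in their deviations by over 0.1 in 11 of 22 pairs (median 0.0943, lowest 0.0287). For different numbers it was 3 of 45 pairs (median -0.063). In addition, 12 of 13 libraries correlated best with their own number. This is a hint from the data that libraries of 1 number have something in common. The labels do not say what, and the main fit did not use the number. At 24 h after 6 Gy TRIM22 was also called with library totals (0.54). No scaling moved the median of all genes by more than 0.1 on the log2 scale. Members with few counts, such as TRIM6 (6 to 29 a library), are limited by depth.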
